A study of Mus musculus with 10 samples.

Results

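The genes described here encode ligands of immune checkpoint receptors, together with the tryptophan-degrading enzyme indoleamine 2,3-dioxygenase. They are the 10 genes Cd274, Pdcd1lg2, Cd80, Cd86, Cd276, Vsir, Pvr, Nectin2, Lgals9 and Ido1, found by their symbol among the 36009 genes of the count table. All 10 were among the 16041 genes that passed the filter on low counts and were tested. Their RNA was measured in 10 subcutaneous CT26 tumors, 6 from responders and 4 from non-responders. CT26 is a colorectal carcinoma line of BALB/c mice, and every tumor had grown in a wild-type (WT) female BALB/c mouse. The tissue was cut out before any treatment, when most of the tumor bulk was resected. A hydrogel loaded with poly(I:C), a synthetic double-stranded RNA, was then placed on the residual tumor in all 10 mice. Responders were mice whose tumor regressed completely and non-responders those whose tumor grew without delay, so each comparison asks which pre-treatment levels went with the later response. An age for each mouse is not given in the labels. Each library came from the tumor of a separate mouse, and all tumors grew from a single cell line.

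Checkpoint ligands sit on tumor cells, macrophages and dendritic cells and bind receptors on T and NK cells, which they restrain or, for some pairs, activate. PD-L1, encoded by Cd274, and IDO1 are classical targets of interferon gamma (IFN-γ), the cytokine that T and NK cells release and that signals through JAK kinases and IRF1. B7 proteins such as CD80 and CD86 engage CD28 to activate and CTLA-4 to restrain T cells, whereas nectin-type ligands such as PVR share the receptors CD226, TIGIT and CD96.

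Libraries held 29065126 to 38042544 estimated counts in responders and 23374649 to 32986456 in non-responders. Expression is given as CPM, counts per 1000000 counts of the normalized library, and genes were compared between groups with the quasi-likelihood test of edgeR, adjusted over all genes tested. Leukocytes were present in every tumor, with Ptprc (CD45) at 326.2 to 499.3 CPM in responders and 181.1 to 307.4 CPM in non-responders. These ranges did not overlap, so a fit with Ptprc as a covariate cannot cleanly separate Ptprc from the response. The epithelial markers Epcam, Krt8, Krt18, Krt19 and Vil1 were under 1 CPM in all 10 tumors, although the labels call the cells colorectal carcinoma. Krt20 was detected at 12.7 to 75.3 CPM and Cdh1 at 2.63 to 7.03 CPM. In bulk tissue, fewer cells of a type and less RNA per cell cannot be told apart.

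Of the 10 genes, Vsir rose and Pvr fell in responders at an adjusted p under 0.05, where 8.06% of all genes tested passed in either direction, 4.71% as higher and 3.35% as lower. The estimates were higher in responders for 7 genes and lower for 3, and their median log2 fold change was 0.39 against -0.01 over all genes. Before adjustment, 5 of the 10 had p under 0.05, against 29.1% of all genes. The groups did not overlap for 1 of the 10 genes, Vsir, which was higher, against 10.4% of all genes, 5.84% as higher. The widest range over tumors belonged to Ido1, Pdcd1lg2 and Cd274, whose highest tumor stood 20.5-fold, 8.47-fold and 6.10-fold above the lowest, and none of these passed the test. Nectin2 and Cd276 were the most even, at 1.21-fold and 1.26-fold.

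**Figure D1:**
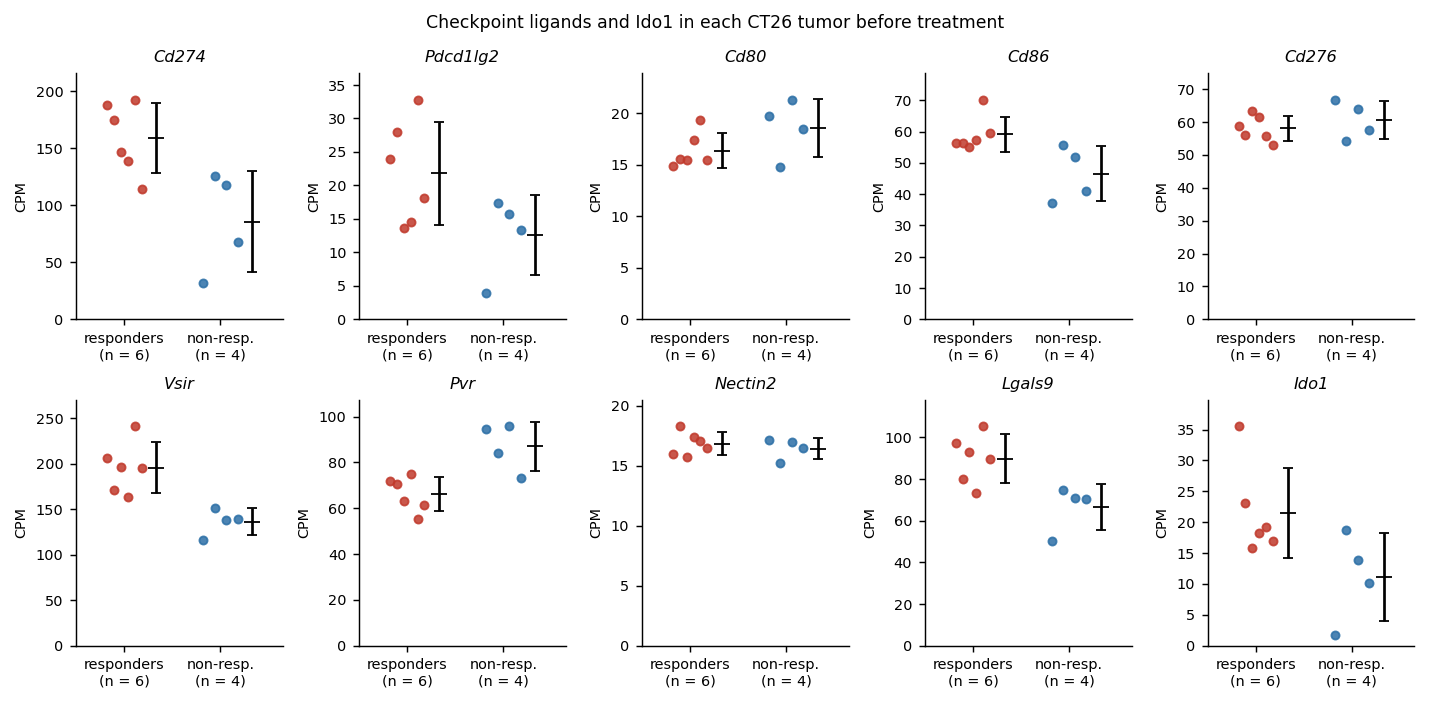
Expression in CPM (y axis, from 0) of the 10 genes in each tumor, red points for the 6 responders and blue points for the 4 non-responders, with the mean and SD of each group as black bars. Vsir responders sat between 163.8 and 241.7 CPM, all above the non-responders at 115.8 to 151.3 CPM, while the groups overlapped for the other 9 genes.

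Cd274 encodes PD-L1, the main ligand of the inhibitory receptor PD-1. Its levels were 31.5, 125.4, 118.0 and 67.5 CPM in non-responders 1 to 4 and 113.9 to 192.5 CPM in the 6 responders, with a median of 160.2 CPM. Non-responder 1 was the lowest and responder 5 the highest tumor, and 5 of 6 responders exceeded every non-responder. The groups averaged 158.8 ± 30.9 CPM (SD, n = 6) and 85.6 ± 44.3 CPM (SD, n = 4). The log2 fold change of 0.89 (SE 0.32) did not pass the test (edgeR adjusted p = 0.0940). Without non-responder 1 it was 0.62 (SE 0.21), with an adjusted p of 0.128. The unadjusted p by edgeR was 0.0134 in that fit, where 16 of all genes passed, against 0.0167 with all tumors. With the log2 CPM of Ptprc as a covariate the log2 fold change was -0.14, with an adjusted p of 0.968.

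Cd274 (ENSMUSG00000016496) spans chr19:29367455-29388095 on the plus strand of GRCm38. An antisense gene shares 511 of its exon bases, and 14.6% of the 31-base words of its transcripts also occur in other genes, so part of its count is uncertain. The sequence before its RefSeq start is shown because Cd274 is a classical target of IFN-γ. Promoters of 300 bases, 250 before and 50 after the start, were found in RefSeq on GRCm38.p6 for 7 of the 10 genes, all but Cd86, Pvr and Ido1. They were searched on both strands for a form of the interferon-stimulated response element (ISRE), which is GAAA followed by any 2 bases and GAAA again. They were also searched for TTCNNNGAA, a form of the gamma-activated sequence, and for GAAAC, a core of IRF sites that can overlap the ISRE form. The Cd274 promoter held GAAAC 2 times and neither longer motif, and 45.0% of 32851 promoters of this length hold GAAAC. Its 250 bases before the start, at chr19:29367188-29367437 on the plus strand, have both matches in capitals, which read GTTTC on this strand.
Cd274 promoter: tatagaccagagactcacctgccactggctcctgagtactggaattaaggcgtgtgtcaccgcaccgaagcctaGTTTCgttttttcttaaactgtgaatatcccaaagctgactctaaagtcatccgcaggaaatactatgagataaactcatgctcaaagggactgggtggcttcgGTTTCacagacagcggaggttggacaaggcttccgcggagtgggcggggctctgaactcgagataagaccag

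Pdcd1lg2 (ENSMUSG00000016498) encodes PD-L2, the second ligand of PD-1, found mostly on macrophages and dendritic cells. The gene lies at chr19:29410919-29471161 on the plus strand, 22823 bases after Cd274. Non-responders 1 to 4 had 3.88, 17.4, 15.7 and 13.4 CPM, and the responders ranged from 13.7 to 32.8 CPM with a median of 21.0 CPM. As for Cd274, non-responder 1 was lowest and responder 5 highest, but the groups overlapped more, with 4 of 6 responders above every non-responder. Means were 21.8 ± 7.69 CPM (SD, n = 6) and 12.6 ± 6.03 CPM (SD, n = 4), and their log2 difference of 0.79 (SE 0.37) did not pass the test (edgeR adjusted p = 0.178). With the Ptprc covariate the estimate was -0.35 (edgeR adjusted p = 0.931). Its promoter held GAAAC 1 time.

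The ligands of CD28 and CTLA-4 differed from each other in direction. Cd86 (ENSMUSG00000022901, chr16:36603869-36666081, minus strand) encodes B7-2, which macrophages and dendritic cells carry at rest and raise on activation. It was at 37.1, 55.7, 51.9 and 41.1 CPM in non-responders 1 to 4 and at 55.0 to 70.2 CPM in responders, with a median of 56.9 CPM. Responders other than responder 5 lay close together between 55.0 and 59.4 CPM, and 5 of 6 exceeded every non-responder, with non-responder 2 inside the responder range. The log2 fold change of 0.35 (SE 0.11) did not pass with edgeR (adjusted p = 0.0722) and passed with the Wald test of DESeq2 (adjusted p = 0.0263). With the Ptprc covariate it was -0.030 (edgeR adjusted p = 0.982).

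Cd80 (ENSMUSG00000075122, chr16:38455561-38496335, plus strand) encodes B7-1, which binds CTLA-4 more tightly than CD28 and also pairs with PD-L1. Non-responders had 19.8, 14.7, 21.3 and 18.5 CPM, and responders 14.9 to 19.3 CPM with a median of 15.6 CPM. The lowest and the highest of the 10 tumors were both non-responders, 2 and 3. The estimate was lower in responders, at -0.18 (SE 0.11) on the log2 scale, and did not pass (edgeR adjusted p = 0.281).
Within a tumor, Cd86 stood at 3.30 to 3.83 times the CPM of Cd80 in responders and at 1.88, 3.78, 2.44 and 2.22 times in non-responders 1 to 4. The 6 responders were thus close to each other in this ratio, and non-responder 2 lay within their range while the other 3 non-responders lay below it. Log2 CPM of the 2 genes were not related over the 10 tumors (r = -0.35, permutation p = 0.332, rho = -0.26, permutation p = 0.472, adjusted p = 0.398 over 6 relations). In the 6 responders alone r was 0.85 (exact p = 0.0486) and rho 0.77 (exact p = 0.103).

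Cd276 and Vsir are B7-family ligands without a settled place in the CD28 and CTLA-4 scheme. Cd276 (ENSMUSG00000035914, chr9:58524298-58555437, minus strand) encodes B7-H3, which many carcinomas and stromal cells carry. It was at 66.8, 54.4, 64.0 and 57.5 CPM in non-responders and at 53.1 to 63.4 CPM in responders, with a median of 57.3 CPM. These ranges lay largely on top of each other, and their log2 difference was -0.06 (SE 0.07, adjusted p = 0.576 by edgeR). Non-responder 1, the lowest tumor for 6 of the genes, was the highest for Cd276. A transcript annotated on the other strand shares 416 of its exon bases, so reads of the 2 cannot be told apart there without a known strand setting.

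Vsir encodes VISTA, an inhibitory ligand that is most abundant on myeloid cells and also occurs on T cells. Non-responders 1 to 4 had 115.8, 151.3, 138.1 and 139.7 CPM, and the responders had 163.8 to 241.7 CPM with a median of 195.9 CPM. All 6 responders exceeded all 4 non-responders. Vsir rose from 136.2 ± 14.8 CPM (SD, n = 4) in non-responders to 195.9 ± 27.8 CPM (SD, n = 6) in responders, which is 0.52 (SE 0.11) on the log2 scale with an adjusted p of 0.0281 by edgeR. By p-value it ranked 263 of the 16041 genes. The call was lost without responder 3 or without non-responder 1, 3 or 4 (adjusted p = 0.0628, 0.0707, 0.0544 and 0.0741), while the log2 fold change stayed between 0.46 and 0.58.

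Ptprc rose in responders as Vsir did (log2 fold change 0.60, adjusted p = 0.0413 by edgeR). Per 100 CPM of Ptprc, Vsir stood at 46.8 to 59.3 in responders and 49.2 to 64.0 in non-responders, with overlapping ranges. With the log2 CPM of Ptprc as a covariate, its log2 fold change was 0.17 (edgeR adjusted p = 0.915). Of 5 macrophage markers, 3 rose in responders (Adgre1, Cd68 and Itgam), where 4.71% of all genes tested rose. Csf1r did not pass (edgeR adjusted p = 0.130), and Mrc1 had a lower estimate of -0.13 (edgeR adjusted p = 0.494). The summed macrophage markers were at 1241 to 1780 CPM in responders against 1137 to 1343 CPM. The part of macrophages and other leukocytes in the result was not tested. Ptprc did not overlap between the groups, so the covariate fit cannot cleanly separate it from the response.

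Vsir (ENSMUSG00000020101) lies at chr10:60346851-60372684 on the plus strand, within the span of Cdh23 on the other strand, with which it shares 0 exon bases. Cdh23 stood at 1.17 to 3.26 CPM. The Vsir promoter is shown beside those of Cd274 and Lgals9 because it held none of the 3 motifs, so it has no capitals. The promoters of Cd276 and Nectin2 held none of them either. Its 250 bases before the start are chr10:60346601-60346850 on the plus strand.
Vsir promoter: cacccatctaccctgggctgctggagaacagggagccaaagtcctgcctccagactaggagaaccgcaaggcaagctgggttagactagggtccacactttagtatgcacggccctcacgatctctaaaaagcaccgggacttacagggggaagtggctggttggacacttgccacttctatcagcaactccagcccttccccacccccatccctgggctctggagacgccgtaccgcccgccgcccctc

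Pvr encodes CD155, a nectin-like adhesion protein of epithelial and tumor cells that activates lymphocytes through CD226 and restrains them through TIGIT. It was the gene of the 10 that fell in responders. Non-responders 1 to 4 had 94.7, 84.3, 95.9 and 73.1 CPM, and responders had 55.2 to 75.0 CPM with a median of 66.8 CPM. Responder 5 was the lowest, and 5 of 6 responders lay below every non-responder, with responder 4 above non-responder 4. Means were 66.1 ± 7.48 CPM (SD, n = 6) and 87.0 ± 10.7 CPM (SD, n = 4), which is -0.39 (SE 0.10) on the log2 scale with an adjusted p of 0.0378 by edgeR.

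The fall of Pvr was kept without responder 4 or non-responder 2 and lost without any other tumor, with adjusted p from 0.0299 to 0.0994. The adjustment also depends on all other genes. Without non-responder 4 the unadjusted p of Pvr by edgeR was 0.00044, against 0.0017 with all tumors, and 0 of all genes passed. The log2 fold change of Pvr lay between -0.47 and -0.34 in the fits with 1 tumor left out. It was -0.24 with the Ptprc covariate (edgeR adjusted p = 0.915). Per 100 CPM of Ptprc, Pvr stood at 11.1 to 23 in responders and 27.4 to 52.3 in non-responders. Ptprc alone did not overlap between the groups, so this ratio does not describe Pvr apart from Ptprc. Nectin2, nearly even in CPM, also averaged lower per 100 CPM of Ptprc, at 4.52 in responders against 6.87. Of the 10 genes, only Cd274, Pdcd1lg2 and Ido1 averaged higher in responders on this scale. The groups overlapped for each of them, and non-responder 1 was the lowest tumor, at 17.4, 2.14 and 0.959. With the Ptprc covariate the estimates of these 3 genes were negative, at -0.14, -0.35 and -0.077, and did not pass. Markers of colorectal epithelium were at 17.5 to 42.1 summed CPM in responders and 40.3 to 84.8 CPM in non-responders. Most of each sum was Krt20, and 5 of the 8 markers were under 1 CPM in all tumors. With edgeR 0 of the 4 tested passed, 3 of them at an unadjusted p under 0.05. Their part in the lower Pvr was not tested.

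Nectin2 encodes CD112, which binds PVRIG and TIGIT. It lies 153094 bases from Pvr, with Nectin2 (ENSMUSG00000062300) at chr7:19716644-19750483 and Pvr (ENSMUSG00000040511) at chr7:19903578-19921160, both on the minus strand. Nectin2 was at 17.1, 15.2, 17.0 and 16.5 CPM in non-responders and 15.8 to 18.3 CPM in responders, with a median of 16.8 CPM. An antisense gene shares 135 of its exon bases. All 10 tumors fell within this narrow band, and their log2 difference was 0.04 (SE 0.06, adjusted p = 0.741 by edgeR). The ratio of Pvr to Nectin2 was 3.24 to 4.48 in responders and 5.53, 5.55, 5.66 and 4.44 in non-responders 1 to 4. Only non-responder 4 came within the responder range of this ratio, and the 2 genes were not related over tumors (r = 0.0007, permutation p = 0.999, rho = 0.03, permutation p = 0.946, adjusted p = 0.999).

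Lgals9 (ENSMUSG00000001123, chr11:78962974-78984946, minus strand) encodes galectin-9, a sugar-binding protein that is secreted and binds TIM-3 among other receptors. Non-responders 1 to 4 had 50.5, 74.6, 71.0 and 70.2 CPM, and responders had 73.3 to 105.6 CPM with a median of 91.3 CPM. Responder 4, at 73.3 CPM, was just under non-responder 2, and the other 5 responders exceeded every non-responder. The log2 fold change of 0.43 (SE 0.12) fell just short with edgeR (adjusted p = 0.0511). It passed with DESeq2 (adjusted p = 0.00822) and with a filter of at least 1 CPM in 4 tumors (edgeR adjusted p = 0.0488). Without non-responder 1 the log2 fold change was 0.33 (adjusted p = 0.112), and with the Ptprc covariate it was 0.023 (adjusted p = 0.986).

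Lgals9 was the gene of the 7 with a promoter that held the ISRE form, 1 time before and 1 time after the start, whereas 3.44% of all promoters hold it. No promoter of the 7 held TTCNNNGAA, which 8.30% of all promoters hold. The Lgals9 sequence is shown because of this match, at chr11:78984900-78985174 on the minus strand, with 250 bases before and 25 after the start. Capitals mark both ISRE matches, read on this strand as TTTC, any 2 bases and TTTC again, and the 2 matches of GAAAC that overlap the match after the start. A match of letters is a description of the sequence and not a binding site.
Lgals9 promoter: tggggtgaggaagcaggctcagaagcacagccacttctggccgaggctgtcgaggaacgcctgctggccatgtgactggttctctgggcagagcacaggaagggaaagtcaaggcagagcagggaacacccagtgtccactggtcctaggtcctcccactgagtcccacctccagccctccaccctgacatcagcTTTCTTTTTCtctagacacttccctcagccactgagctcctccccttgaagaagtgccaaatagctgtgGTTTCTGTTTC

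Ido1 (ENSMUSG00000031551, chr8:24584136-24597009, minus strand) encodes the enzyme that opens the tryptophan ring and starts the kynurenine route, which starves and restrains T cells. It was at 1.74, 18.8, 13.9 and 10.1 CPM in non-responders 1 to 4 and at 15.9 to 35.6 CPM in responders, with a median of 18.7 CPM. Non-responder 1 held only 43 counts of Ido1 and responder 1 held 1069, and these were the lowest and the highest tumors. Non-responder 2 exceeded 3 of the 6 responders. The groups averaged 21.5 ± 7.36 CPM (SD, n = 6) and 11.1 ± 7.19 CPM (SD, n = 4), and the log2 fold change of 0.95 (SE 0.45), the largest estimate of the 10 genes, did not pass (edgeR adjusted p = 0.190). Without non-responder 1 it was 0.60 (SE 0.27), with an adjusted p of 0.222. The unadjusted p by edgeR was 0.0496 in that fit, against 0.0593 with all tumors. With the Ptprc covariate the log2 fold change was -0.077, with an adjusted p of 0.991.

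**Figure D2:**
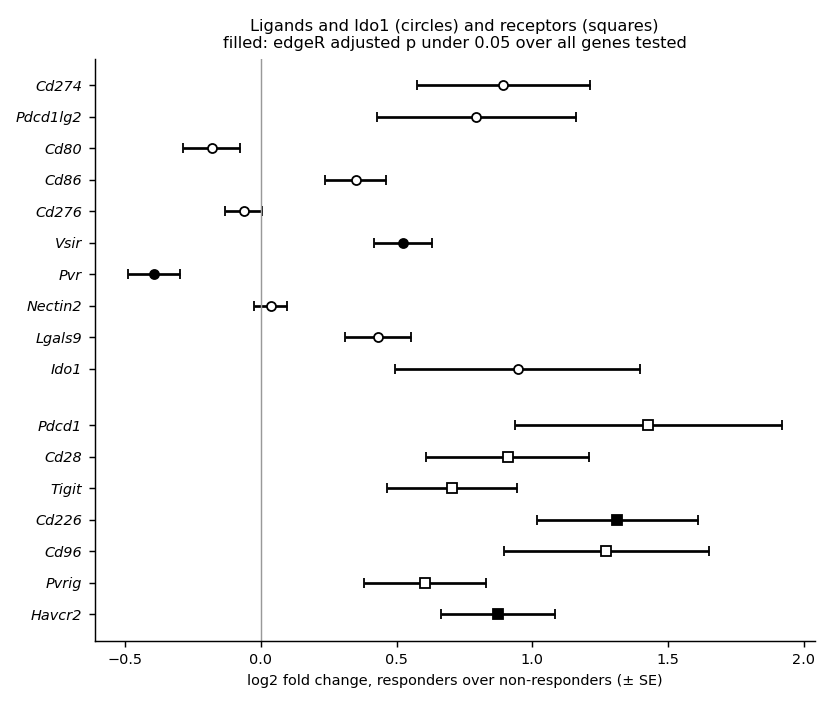
Log2 fold change of responders over non-responders (x axis) with its SE for the 10 genes (circles) and 7 receptors (squares), filled where the edgeR adjusted p was under 0.05. Vsir (0.52), Pvr (-0.39), Cd226 (1.31) and Havcr2 (0.87) are filled, and Ido1 (0.95) and Cd274 (0.89) are open with wide errors.

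Levels were compared between genes per kilobase of annotated exon. Lgals9, Cd274 and Vsir were the most abundant, at 37.7 ± 7.55, 35.8 ± 14.1 and 34.3 ± 7.60 CPM per kilobase (SD, n = 10). Cd276 followed at 16.2 ± 1.26, Cd86 at 14.8 ± 2.53 and Pvr at 12.2 ± 2.22 CPM per kilobase. Ido1 stood at 9.5 ± 4.77, Pdcd1lg2 at 9.25 ± 4.20, Nectin2 at 4.77 ± 0.255 and Cd80 at 4.66 ± 0.635 CPM per kilobase. Of the 9 neighbouring pairs in this order, only Vsir and Cd276 had ranges over the tumors that did not overlap, with Vsir higher in 10 of 10 tumors. With the length of the longest transcript in place of all exons, Pvr moved from rank 6 to rank 4, at 25.6 CPM per kilobase. It then stood next below Vsir at 35.5 CPM per kilobase, so the gap below Vsir depends on the length used.

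The tumors at the ends of the range recurred from gene to gene. Non-responder 1 had the lowest CPM for 6 genes (Cd274, Pdcd1lg2, Cd86, Vsir, Lgals9 and Ido1) and for 21.7% of all genes tested. It had the highest CPM for 1 gene, Cd276, and for 17.3% of all genes. Responder 5 was the highest for 5 genes (Cd274, Pdcd1lg2, Cd86, Vsir and Lgals9) and for 19.3% of all genes. Summed over the 10 genes, CPM ran from 439.0 in non-responder 1 to 809.4 in responder 5. These tumors were also the lowest and the highest for Ptprc, at 181.1 and 499.3 CPM, and for the summed T and NK cell markers, at 17.2 and 185.3 CPM. The part of leukocyte content in these levels was not tested. With the Ptprc covariate, 0 of the 10 genes and 0 of all 16041 passed with edgeR, 0 and 845 of them at an unadjusted p under 0.05. Ptprc itself did not overlap between the groups, so this fit cannot cleanly separate leukocyte content from the response.

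**Figure D3:**
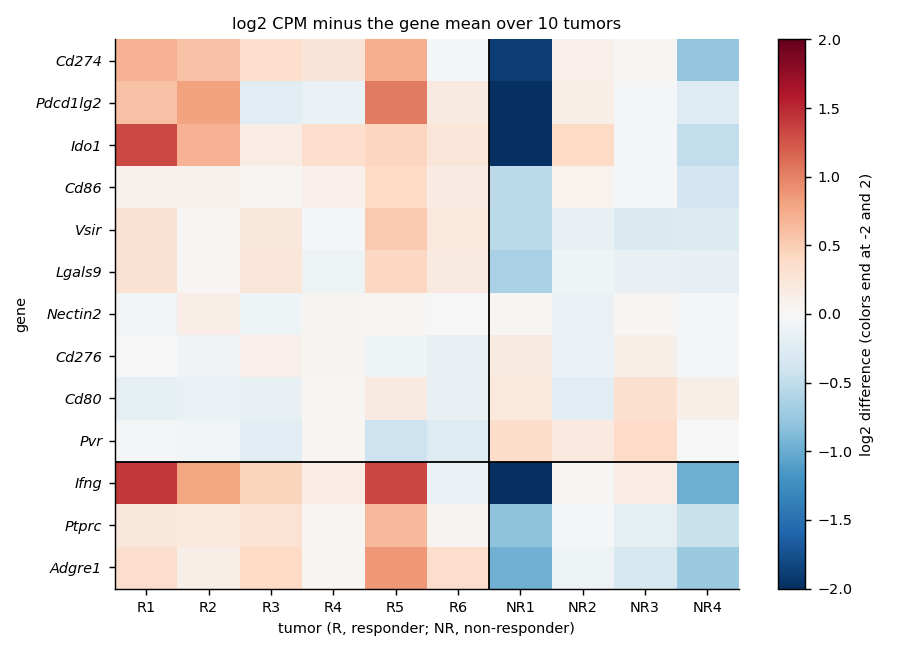
Log2 CPM minus the mean of each gene over the 10 tumors (color, with values past the scale drawn in its end color) for the 10 genes above the line and Ifng, Ptprc and Adgre1 below it, with responders 1 to 6 on the left and non-responders 1 to 4 on the right. Non-responder 1 is the lowest column for Cd274, Pdcd1lg2, Ido1, Cd86, Vsir and Lgals9, and responder 5 is the highest for 5 of them.

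Over the 10 tumors, log2 CPM of Ido1 was related to that of Ifng, the gene of IFN-γ, with r = 0.94 (permutation p = 0.00021) and rho = 0.83 (permutation p = 0.00476, adjusted p = 0.0005 over the 6 relations examined). Without non-responder 1 and responder 1 its r was 0.76 (exact p = 0.0354), and it was 0.70 in the responders alone (exact p = 0.111). Ifng rested on few counts, 5 in non-responder 1 and at most 166. Cd274 and Ido1 were related to each other with r = 0.95 (permutation p = 0.00025, adjusted p = 0.0005) and rho = 0.85 (permutation p = 0.00288). That relation held without non-responder 1 and responder 1 (r = 0.88, exact p = 0.00801) and was not resolved in the 6 responders (r = 0.63, exact p = 0.160). Cd86 was compared with the macrophage marker Adgre1 in responders only, because the groups did not overlap in Adgre1, and there r was 0.81 (exact p = 0.108) and rho 0.03 (exact p = 1), with an adjusted p of 0.163.

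**Figure D4:**
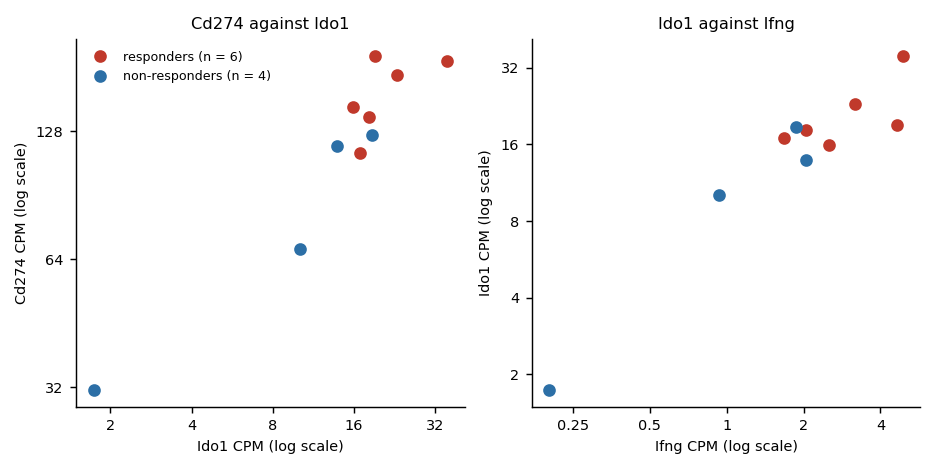
CPM on log axes of Cd274 against Ido1 and Ido1 against Ifng, 1 point per tumor, red for responders and blue for non-responders. Non-responder 1 lies alone at the lower left of each panel, at 31.5 CPM of Cd274 and 1.74 CPM of Ido1, and r over all 10 tumors was 0.95 and 0.94.

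Among 11314 genes with a mean of at least 5 CPM, the genes most like Cd274 over the 10 tumors were Samhd1, Gbp5, Gbp4, Ifi47 and Gm43302, each with r = 0.99 in log2 CPM. The genes most like Ido1 were Psme1 (r = 0.99), Snx10 (r = 0.99), Ifitm3 (r = 0.98), Tgtp1 (r = 0.98) and Psmb9 (r = 0.98). In the 6 responders alone, r was 0.95 to 0.98 for the 5 genes most like Cd274 and 0.78 to 0.96 for those most like Ido1. These genes were picked by r over all 10 tumors, which include the 6 responders, so the values in responders are no separate check. An r of at least 0.9 over the 10 tumors was reached by 530 genes with Cd274 and by 262 with Ido1. All of these values share the same 10 libraries.

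Receptors of the ligands were measured in the same tumors. Of 8 receptor genes, 7 were tested, and 2 of these rose in responders while none fell, where 4.71% of all genes rose. All 7 estimates were higher in responders, with a median log2 fold change of 0.91 against -0.01 over all genes. Cd226, the activating receptor of PVR, was at 1.29, 2.54, 1.99 and 2.38 CPM in non-responders and 2.77 to 7.49 CPM in responders, with a median of 4.45 CPM. Its groups did not overlap, as for 5.84% of all genes as higher in responders. The log2 fold change of Cd226 was 1.31 (SE 0.30), which passed with edgeR (adjusted p = 0.0330) and not with limma-voom (adjusted p = 0.0502). Havcr2, which encodes TIM-3, was at 9.16, 18.7, 14.4 and 10.3 CPM in non-responders and 18.7 to 30.5 CPM in responders, with a median of 23.8 CPM. Non-responder 2 just exceeded the lowest responder, and the log2 difference was 0.87 (SE 0.21, adjusted p = 0.0368 by edgeR). Both calls were lost without responder 1, 2, 3 or 5 or non-responder 1, 3 or 4, with adjusted p up to 0.0814 and 0.0967, and that of Havcr2 also without responder 6. The log2 fold changes stayed at 1.16 to 1.45 for Cd226 and 0.74 to 1.10 for Havcr2 in these fits, and were 0.51 and 0.20 with the Ptprc covariate (edgeR adjusted p = 0.919 and 0.927). The T and NK cell markers summed to 46.9 to 185.3 CPM in responders and 17.2 to 54.0 CPM in non-responders, with Nkg7 passing of 5, and their part in the receptor levels was not tested.

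The other receptors were higher in responders by estimate and did not pass with edgeR. The log2 fold change was 1.43 (SE 0.49, adjusted p = 0.0863) for Pdcd1, which encodes PD-1, and 0.91 (SE 0.30, adjusted p = 0.0778) for Cd28. It was 0.70 (SE 0.24, adjusted p = 0.0839) for Tigit, 1.27 (SE 0.38, adjusted p = 0.0588) for Cd96 and 0.60 (SE 0.22, adjusted p = 0.106) for Pvrig. Ctla4 had 0 to 25.4 counts per tumor, was below the filter and was not tested. With DESeq2, 6 of the 7 passed, and so did 2602 of all 16041 genes.

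Pvr was also set against its receptors within each tumor. The ratio of Pvr to Cd226 in CPM was 7.53 to 27.1 in responders and 73.3, 33.2, 48.1 and 30.7 in non-responders 1 to 4. Every responder lay below every non-responder in this ratio, of a gene that fell and a gene that rose. The ratio of Pvr to Tigit overlapped, at 6.02 to 17.0 in responders and 34.0, 19.6, 20.7 and 16.4 in non-responders 1 to 4. The ratio of Tigit to Cd226, the inhibitory against the activating receptor, was 1.02 to 1.60 in responders and 2.16, 1.69, 2.33 and 1.87 in non-responders, without overlap. Cd226 alone did not overlap between the groups, and the pairs were chosen after these values were seen. The separation of both ratios over Cd226 therefore adds no support. These ratios are descriptions and were not tested. The ratio of Cd274 to Pdcd1 overlapped, at 5.63 to 16.5 in responders and 8.83 to 17.2 in non-responders.

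**Figure D5:**
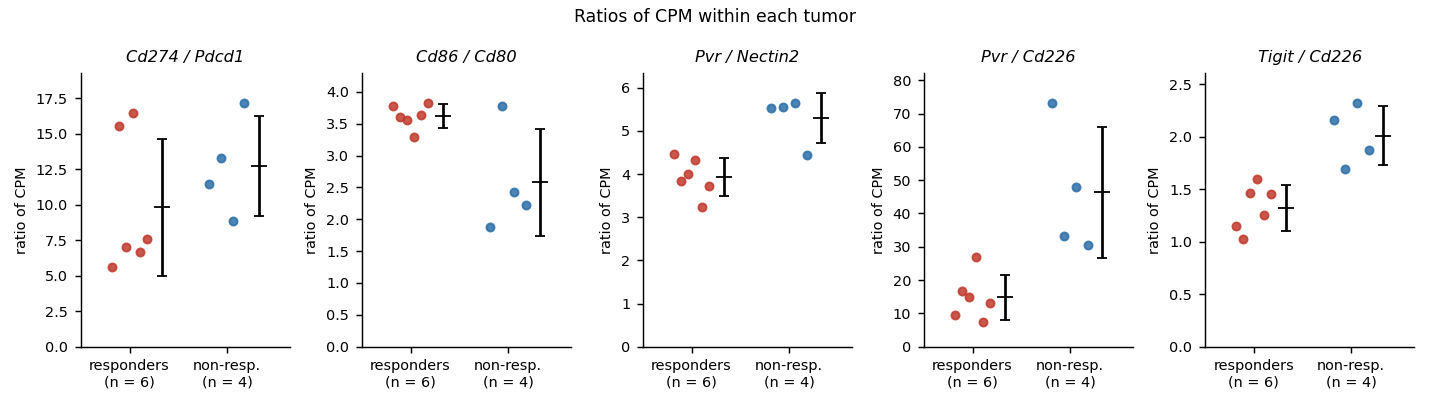
Ratios of CPM within each tumor (y axes, from 0) for 5 gene pairs, with red points for the 6 responders, blue points for the 4 non-responders and bars for mean and SD. Pvr to Cd226 (7.53 to 27.1 against 30.7 to 73.3) and Tigit to Cd226 (1.02 to 1.60 against 1.69 to 2.33) do not overlap between groups, while Cd274 to Pdcd1 (5.63 to 16.5 against 8.83 to 17.2) does.

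Genes of the pathways around the ligands mostly stayed short of the test. Of all 16041 genes, 29.1% had an unadjusted p under 0.05 with edgeR, 15.6% as higher, and 2602 passed with DESeq2. In the route of IFN-γ, 0 of 11 genes passed with edgeR, 8 had an unadjusted p under 0.05 and 3 passed with DESeq2, and the median log2 fold change was 0.62. Socs1, a feedback inhibitor of JAK kinases, had 0.85 (SE 0.29, edgeR adjusted p = 0.0866), Irf9 0.39 (SE 0.14, adjusted p = 0.102) and Ifng 1.33 (SE 0.49, adjusted p = 0.102). Among genes that act on the PD-L1 protein, 0 of 6 passed with edgeR, 2 had an unadjusted p under 0.05 and 2 passed with DESeq2. These were led by Cmtm6, which keeps PD-L1 at the cell surface (0.21 on the log2 scale, SE 0.06, adjusted p = 0.0524 by edgeR), and Hip1r, which targets it to lysosomes (0.26, SE 0.08, adjusted p = 0.0548).

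Of 12 genes of tryptophan and kynurenine metabolism, 11 were tested and 1 rose, where 4.71% of all genes rose. Kynu, kynureninase, was at 1.61, 2.43, 1.99 and 1.72 CPM in non-responders and 2.44 to 3.58 CPM in responders, with a median of 3.16 CPM. The groups did not overlap, as for 5.84% of all genes as higher, although non-responder 2 came within 0.1 CPM of the lowest responder. The log2 difference of Kynu was 0.69 (SE 0.16, adjusted p = 0.0330 by edgeR). That call was lost without responder 1, 2, 3 or 5 or non-responder 1, 3 or 4, with adjusted p up to 0.0895, while the log2 fold change stayed at 0.62 to 0.82. It was 0.28 with the Ptprc covariate (edgeR adjusted p = 0.916). Ido2, 7802 bases from Ido1, was at 12.1 to 18.6 CPM in responders and 3.92 to 15.9 CPM in non-responders and did not pass (edgeR adjusted p = 0.247). The median log2 fold change of the 11 was -0.05, near that of all genes.

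Further genes of the B7, butyrophilin and nectin families gave 0 of 7 tested with edgeR, 3 at an unadjusted p under 0.05 and 3 with DESeq2. Icosl, the ligand of ICOS, had 0.32 on the log2 scale (SE 0.09, adjusted p = 0.0583 by edgeR), and Nectin4 had 0.54 (SE 0.16, adjusted p = 0.0597). Of the costimulatory ligands and CD40, 0 of 5 tested passed with edgeR, 1 had an unadjusted p under 0.05 and 1 passed with DESeq2. Cd40, the receptor through which helper T cells license antigen-presenting cells, had 0.67 (SE 0.22, edgeR adjusted p = 0.0777), and Tnfsf9, the 4-1BB ligand, had -0.18 (SE 0.11, adjusted p = 0.297).

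Markers of further cell types overlapped between the groups in their summed levels. Of 7 dendritic cell markers, 1 rose, Xcr1, where 4.71% of all genes tested rose and 3.35% fell. Of the 7 estimates, 4 were higher and 3 lower in responders, with a median log2 fold change of 0.01. The summed dendritic cell markers were at 48.4 to 68.4 CPM in responders and 46.1 to 61.9 CPM in non-responders. Skeletal muscle markers summed to 315.9 to 1038 CPM against 287.0 to 373.3 CPM with 2 of 4 passing, and adipocyte markers to 15.6 to 52.0 CPM against 8.54 to 18.9 CPM with 0 of 4 passing, all 4 at an unadjusted p under 0.05. Of 5 fibroblast markers Pdgfrb fell, and the B cell marker Ms4a1 was under 1 CPM in all tumors. The part of these cells in the levels of the checkpoint ligands was not tested.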

How the data were processed

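PolyA RNA of 10 resected CT26 tumors was sequenced in 150 bp paired-end reads per the labels. The authors checked reads with FastQC, estimated transcript abundance with kallisto and summed transcripts to genes with tximport, and the submitters' processing notes name GRCm38. The deposited values are estimated counts per gene as the authors made them, fractional for 44.9% of values. The annotation release, tximport scaling and strand setting are not given in the sources used here. Pseudoalignment splits reads between transcripts that share sequence, so overlapping genes are uncertain.

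These counts were rounded, and edgeR 4.0.16 under R 4.3.3 was used for the tests (filterByExpr with minimum count 10 and minimum total count 15, TMM normalization, glmQLFit and glmQLFTest, two-sided, Benjamini-Hochberg adjustment over 16041 genes, threshold 0.05). The SE was obtained by dividing the log2 fold change by √F. The fit was tested on simulated data. Filtering cost a tumor no more than 0.0716% of its counts, and 9633 genes without a name, 1.04% to 1.23% of counts, stayed in library sizes and tests. Log2 CPM used a prior count of 2. Relations were tested with 100000 permutations over 10 tumors or exactly over 6 or 8, two-sided, and 1 of the 6 relations is not reported here. Gene positions came from GENCODE on GRCm38. Alternatives used DESeq2 1.42.0 and limma 3.58.1.

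Groups followed the response in the labels, and tumor numbers follow accession order and do not pair tumors. No batch is given in the labels. No pair of the 45 library pairs agreed within sampling noise (chi-square per degree of freedom at least 10.7). The p-values of the group comparisons set the difference between groups against the spread between these tumors. Those of the relations come from permuting the tumors. The 10 genes, the other lists and the naming rule were chosen with earlier results of these data known. Every one of the 10 genes is named. Of the other lists, genes with an adjusted p under 0.05 are named, or else the 2 with the smallest p, plus the receptors, the partners in the relations, Ptprc and Ifng, and for Cd274 and Ido1 the 5 genes with the highest r. Ido2, Cdh23, Csf1r, Mrc1 and the numerators and denominators of the ratios were added after their values were seen.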

Additional observations from a re-analysis of the deposited data

Results flagged for a closer look

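In 60 groups of values (30 genes in 2 groups), 5 had a tumor whose gap to its nearest neighbour was larger than the 95% limit of Dixon's test for the range of the group, where chance gives about 1 in 20, or 3 groups. All 5 were in the responders. Responder 5 stood apart as the highest for Cd86, at 70.2 CPM with the next responder at 59.4 CPM, for Ptprc, at 499.3 CPM with the next at 388.0 CPM, and for Adgre1, at 311.8 CPM with the next at 226.7 CPM. Ptprc, Adgre1 and the summed macrophage markers were the highest of the 10 tumors in responder 5. The macrophage marker Mrc1 was not, at 446.1 CPM against 556.2 CPM in non-responder 4. Per 100 CPM of Ptprc, its Cd86 was the lowest of the responders, at 14.1 against 14.2 to 18 in the other 5. Without responder 5 the log2 fold change of Cd86 was 0.29 (edgeR adjusted p = 0.123). Responder 1 was the highest for Ido1, at 35.6 CPM with the next responder at 23.2 CPM, and without it the log2 fold change of Ido1 was 0.74 (edgeR adjusted p = 0.306). Responder 4 was the lowest for Icosl, at 13.8 CPM with the next responder at 16.4 CPM. What set these tumors apart was not tested.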

How the results depend on the processing

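No paired analysis was possible because the tumor numbers follow accession order and each mouse gave 1 tumor. Under other size factors, limma-voom and other filters, all 10 genes kept the direction of their estimate, and the median of all genes moved by at most 0.02 on the log2 scale. The number of the 10 genes that passed was 2 with edgeR, 4 with DESeq2 and 0 with the Ptprc covariate, and 0 to 4 when 1 tumor was left out. It was 0 without responder 3 or without non-responder 1, 3 or 4, 1 without responder 1, 2, 5 or 6, and 4 without non-responder 2. Of all genes, 1293 passed with edgeR, 2602 with DESeq2 and 0 with the covariate (845 at an unadjusted p under 0.05), and 0 to 1897 with 1 tumor left out, where non-responder 4 gave 0 (4106 unadjusted), non-responder 1 gave 16 and responder 3 gave 17.

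With the Ptprc covariate the estimates of 5 genes changed sign without passing, to log2 fold changes of -0.14 for Cd274, -0.35 for Pdcd1lg2, -0.030 for Cd86, 0.044 for Cd276 and -0.077 for Ido1. The cause was not tested. The receptors passing were 6 with DESeq2, 1 with limma-voom and 0 with the covariate, and 0 to 4 with 1 tumor left out. With DESeq2, 3 of the further B7, butyrophilin and nectin genes, 1 costimulatory gene, 3 genes of the IFN-γ route and 2 of PD-L1 handling passed, and the last was also 2 with a filter of at least 1 CPM in 4 tumors. Leaving out 1 tumor gave 0 to 3, 0 to 1, 0 to 1 and 0 to 2 in these lists. Kynurenine genes passing were 0 with the covariate and 0 to 2 with 1 tumor left out. In the 6 responders alone, r was 0.63 for Cd274 with Ido1 and 0.70 for Ido1 with Ifng and no longer passed. The r of Cd80 with Cd86 turned from -0.35 to 0.15 without the 2 farthest tumors and to 0.85 in responders. Depth limits Ifng and Ctla4, with at most 166 and 25.4 counts in a tumor, more than the 10 genes, which had at least 43 counts in each.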
